A study of Homo sapiens with 2 samples.

Results

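The large proteins that hold the actin cytoskeleton together form the gene group described here: the IQGAP scaffolds, the plakins and spectraplakins, talins and vinculin, the spectrins with dystrophin, utrophin and the alpha-actinins, the nesprins, several scaffolds of the cell cortex, and the formins. Of 31 listed genes, 29 had a probe set with exactly 1 gene symbol in the platform annotation. All 29 passed the detection level, among 13144 detected genes of 19775 named on the array. The filamins FLNA and FLNC were not analysed here. The genes were chosen by function and from array differences already seen in these data, among them those of IQGAP1, SVIL and DST, so the counts below describe the group and support nothing.

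The miR-941 group was 1 array of RNA recovered with an antibody to Ago2 from 293T cells transfected with synthetic miR-941. The control group was 1 array from 293T cells transfected with a scrambled oligo. Each oligo was given at 30 nmol/l. 293T is a transformed human embryonic kidney cell line that carries the large T antigen of a simian virus. Ago2 is the Argonaute protein that carries microRNAs and binds the mRNAs they pair with. The title of the control sample says Ago2 precipitate, but its antibody entries give nonimmune IgG beads from another vendor, so if those entries hold, oligo and antibody cannot be told apart. No array of input RNA was analysed here, so the amount recovered and the amount in the cells cannot be told apart.

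Each value is the authors' brightness of a probe set, quantified with RMA and taken as log2. A difference is the miR-941 value minus the control value, so a negative one means lower on the miR-941 array. With 1 array per group there was no replicate check and no test, and the number of arrays limits the precision. Array medians were 0.98 (miR-941) and 0.92 (control). The brightest probe set stood for a gene, and a probe set counted as detected when its mean over both arrays was above 0.92. That level is about the median of such means over probe sets other than controls (0.918) and is not a presence call. Between the 2 brightest probe sets of a gene that were both detected, differences had an SD of 0.29 over 6102 genes, and 0.26 over the 22 members that had a pair. This spread is the yardstick used below, and it holds no variation between cultures. It is not purely technical, because probe sets of a gene can read different stretches or forms of its mRNA. It also pools bright and dim probe sets. From gene to gene, the difference between the arrays varied about as widely, with an SD of 0.30 on the brightest probe sets of detected genes.

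Actin filaments gain their shape from proteins that bundle them, anchor them to membranes or lengthen them. Formins add actin subunits at the growing end of a filament, spectrins form a mesh under the membrane, and talin and vinculin fasten filaments to integrins. Spectraplakins tie actin to microtubules and intermediate filaments, while nesprins span the outer nuclear membrane and connect the nucleus to the cytoskeleton. In epithelial cells such as those of the kidney, these proteins support cell shape, adhesion and division.

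The transfected microRNA is shown because its seed, bases 2 to 8, is the stretch by which a microRNA pairs with mRNAs. The RefSeq sequence of the mature form, from the copy MIR941-1 at chr20:63919495-63919517 on the plus strand of GRCh38.p14, is printed with the seed in capitals.
hsa-miR-941: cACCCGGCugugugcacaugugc
All 5 RefSeq copies of the gene give this 23-base sequence. An mRNA site that pairs with the whole seed reads GCCGGGU. Of 2370 mature microRNA names in the RefSeq table, 1 has this seed. No mRNA sequence was at hand, so sites in the members were not searched for.

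Of the 29 detected members, 23 (79.3%) read lower on the miR-941 array, 4 read higher and 2 were equal. Over all detected genes, 42.4% were lower and 46.3% higher. The median difference of the members was -0.26, against 0.00 over all detected genes. On the brightest probe sets, the differences ran from -1.06 (SYNE2) to 0.39 (DMD). On these, SYNE2 was the only member lower by 2-fold or more, a size reached by 0.289% of all genes. No member was higher by 2-fold, as 0.221% of all genes were. These shares are 38 genes lower and 29 higher; with a loess trend of difference on level removed, they were 46 and 20. A difference of 1.5-fold or more to the lower side was found for 6 members, IQGAP1, SPTBN1, UTRN, SYNE2, SVIL and ANLN, and for 2.87% of all genes. These 6 all had mean values above 3.37, the 75th percentile over probe sets other than controls. Of the 24 members above that level, 22 were lower, where 46.2% of the 8086 genes above it were lower and 1.82% were lower by 1.5-fold. Of the 5 dimmer members, 1 was lower.

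**Figure D1:**
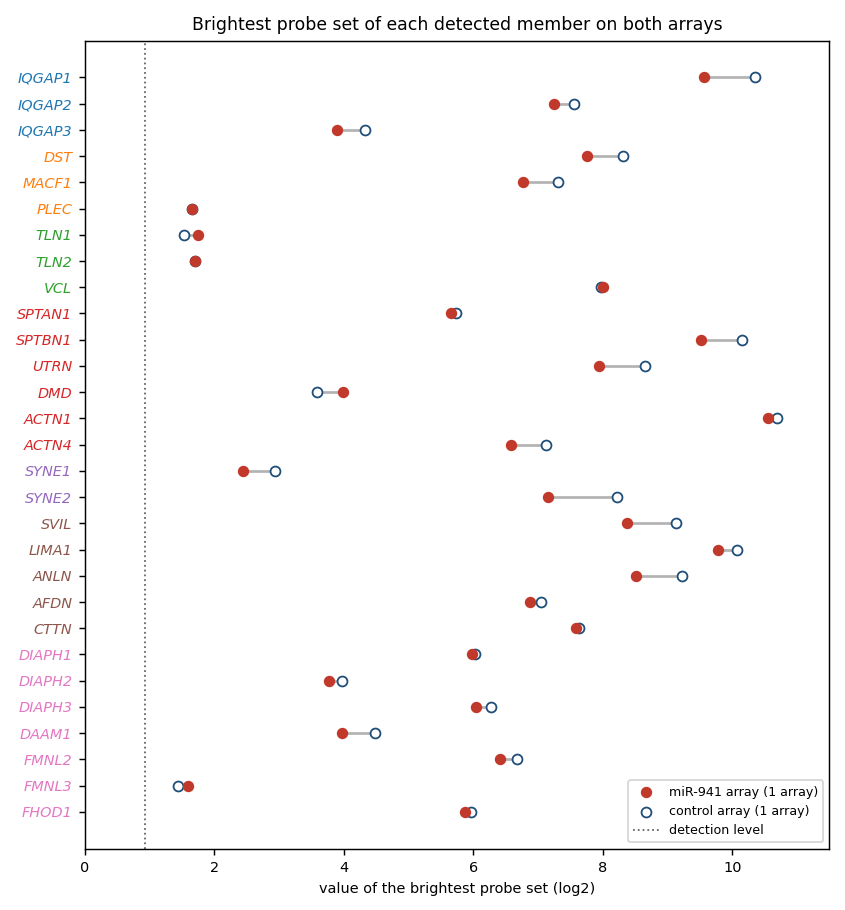
Value of the brightest probe set (log2, horizontal axis) of each of the 29 detected members on the miR-941 array (filled) and the control array (open), with the detection level of 0.92 dotted and gene names coloured by class. The filled point lies left of the open one for 23 members, with the widest gap at SYNE2 (7.16 and 8.22).

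Most members have several probe sets, which read different stretches or forms of the same mRNA. Of 119 member probe sets, 77 passed the detection level, and of these 60 were lower, 11 higher and 6 equal, with a median difference of -0.38. Over all 23302 detected probe sets the median was 0.00 and 43.4% were lower. Among the 77, 3 were lower by 2-fold or more, in DST (-1.32), SYNE2 (-1.06) and IQGAP1 (-1.02), and none was higher by 2-fold. Among the 23302, 113 were 2-fold lower and 83 were 2-fold higher. Of the 22 members with 2 or more detected probe sets, 10 had every one lower, 1 (DMD) had every one higher, and 11 were mixed or held an equal value. Over the 6102 genes with 2 or more, 17.1% had all lower and 16.5% all higher. Probe sets of a gene share 1 hybridisation per array and are not replicates. Leaving aside the brightest probe set of each gene, the other 48 detected probe sets of the members gave 37 lower and 7 higher, where 44.6% of the 10158 such probe sets of all genes were lower.

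**Figure D2:**
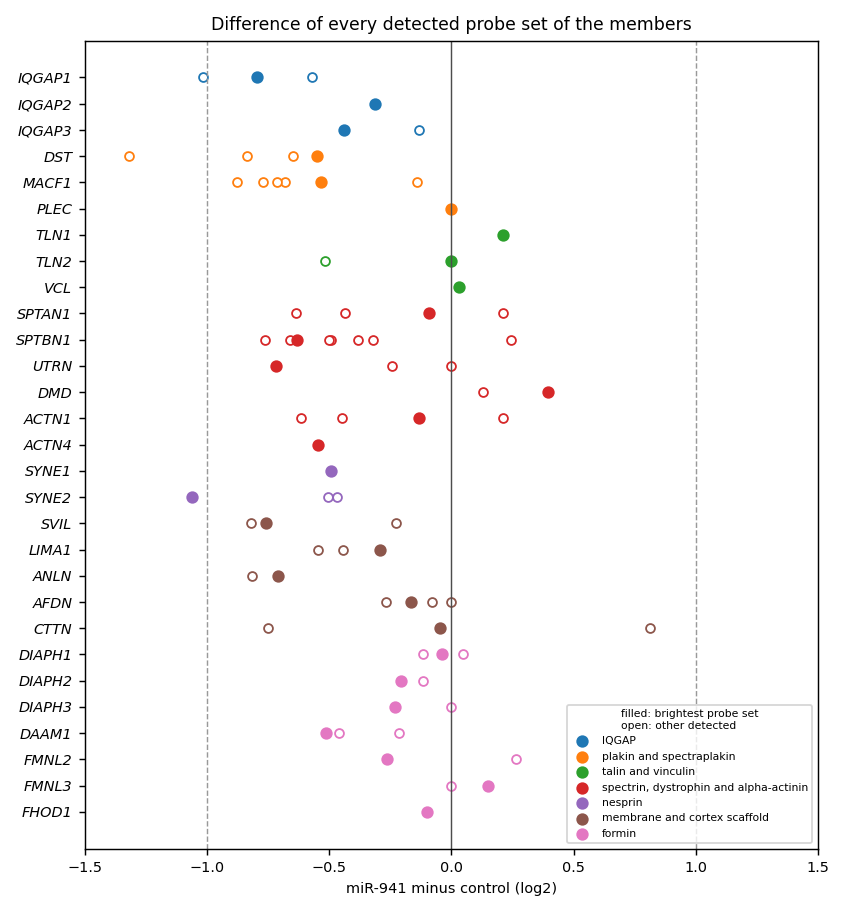
Difference between the arrays (miR-941 minus control, log2, horizontal axis) of each of the 77 detected probe sets, by member gene. Filled points are the brightest probe set of a gene and open points its other detected ones, and dashed lines mark 2-fold. Among members with 2 or more points, those of IQGAP1, IQGAP3, DST, MACF1, SYNE2, SVIL, LIMA1, ANLN, DIAPH2 and DAAM1 all lie left of 0.

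The 3 IQGAP genes encode scaffolds that bind the small GTPases CDC42 and RAC1, calmodulin and actin filaments, and all of them read lower on the miR-941 array. IQGAP1, the widely expressed member, read 9.56 on the miR-941 array and 10.36 on the control array, a difference of -0.79, or 57.6% of the control brightness. Its other probe sets read 8.98 and 6.59 (miR-941) against 10.00 and 7.16 (control), differences of -1.02 and -0.57. The 3 probe sets thus lay on the same side, with an SD of 0.22 among them, and all carry the suffix _s_at, which marks probes shared by several transcripts. IQGAP2, known as a liver-rich relative, read 7.24 on the miR-941 array and 7.55 on the control array (-0.31). Its second probe set was below the detection level, at 0.75 and -0.16. IQGAP3, a relative found in dividing cells, read 3.89 on the miR-941 array and 4.33 on the control array (-0.44). Its dimmer detected probe set differed by -0.13. The median difference of the class was -0.44.

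Both detected spectraplakins read lower on every detected probe set, while plectin was dim and equal. DST encodes dystonin, whose splice forms link intermediate filaments, actin and microtubules to each other and to adhesion sites. Its 4 detected probe sets read 7.76, 7.36, 4.74 and 1.97 on the miR-941 array, against 8.31, 8.01, 6.06 and 2.81 on the control array. The differences were -0.55, -0.65, -1.32 and -0.84, so the brightest probe set showed the smallest one. DST had 10 probe sets in all, and the other 6 had means below the detection level. MACF1 encodes a giant crosslinker of actin and microtubules. Its brightest probe set read 6.77 on the miR-941 array and 7.31 on the control array (-0.54), and all 6 detected ones were lower, from -0.88 to -0.14. The smallest of these belonged to a dim probe set that read 2.19 and 2.33. PLEC, the gene of plectin, which anchors intermediate filaments, read 1.65 on both arrays. At that level an equal reading does not show an unchanged mRNA.

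Talins and vinculin, which couple integrins to actin, did not share this direction. VCL, the gene of vinculin, read 8.002 on the miR-941 array and 7.973 on the control array, a difference of 0.03, well inside the spread between probe sets. TLN1, the gene of the widely expressed talin, read 1.74 on the miR-941 array and 1.53 on the control array (0.21). TLN2, its paralogue, read 1.70 on both arrays, and its second detected probe set read 1.13 against 1.65 (-0.52). Both talin genes were thus read only near the detection level. VCL was the only member above the 75th percentile of level besides DMD that was not lower.

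Spectrins build a mesh of paired alpha and beta chains under the membrane, and the beta chain gene differed more between the arrays than the alpha chain gene on the brightest probe set. SPTBN1, which encodes the widespread non-erythroid beta spectrin, read 9.52 on the miR-941 array and 10.15 on the control array (-0.63). The differences of its 8 detected probe sets had a median of -0.50, a mean of -0.44 and an SD of 0.31. Of these probe sets, 7 were lower and 1 was higher. The higher one read 1.14 on the miR-941 array and 0.90 on the control array, and was among the probe sets nearest to the detection level. SPTAN1, which encodes the alpha chain, read 5.65 on the miR-941 array and 5.74 on the control array (-0.09). Its next brightest probe set read 3.03 against 3.66 (-0.64). Its 4 detected ones held 3 lower and 1 higher, with a median of -0.26, a mean of -0.24 and an SD of 0.37.

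Utrophin and dystrophin are close relatives that tie actin to a membrane complex of dystroglycan and sarcoglycans, and they read in opposite directions. UTRN, the form found in most tissues, read 7.94 on the miR-941 array and 8.66 on the control array (-0.72). Its second probe set read 3.01 against 3.26 (-0.24), and the third read 1.00 on both, just inside the detection level. DMD, the dystrophin gene, is known chiefly from muscle and also makes short forms elsewhere. It read 3.99 on the miR-941 array and 3.59 on the control array (0.39), and its second detected probe set, close to the detection level, read 1.09 against 0.96 (0.13). DMD was the only member with every detected probe set higher. The difference between these genes was not tested.

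Alpha-actinins crosslink actin filaments into bundles. ACTN4 read 6.58 on the miR-941 array and 7.12 on the control array (-0.55) on its only probe set. ACTN1 read 10.56 on the miR-941 array and 10.69 on the control array (-0.13) on its brightest probe set. The next 2 probe sets of ACTN1, both _x_at and so open to related transcripts, read 8.80 and 7.50 against 9.42 and 7.95 (-0.62 and -0.45). The fourth was dim and differed by 0.21. The ACTN1 differences beyond the SD of 0.29 between probe sets of a gene were those of the _x_at probe sets. Over the 6 genes of spectrin, dystrophin and alpha-actinin type the median difference was -0.34.

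Nesprins anchor the nucleus to the cytoskeleton through the nuclear envelope. On the brightest probe sets, SYNE2 showed the lowest difference of all members. SYNE2 read 7.16 on the miR-941 array and 8.22 on the control array (-1.06), which is 47.9% of the control brightness. Of all detected genes, 0.160% differed by more in that direction. Its other detected probe sets read 2.47 and 1.02 against 2.97 and 1.49 (-0.50 and -0.47), so all 3 were lower but the dimmer ones by less than 2-fold. The bright probe set is an _s_at one. SYNE1, the related giant nesprin, read 2.44 on the miR-941 array and 2.93 on the control array (-0.49) on its only detected probe set, 1 of 5.

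The scaffolds of the cortex and of cell junctions all read lower on their brightest probe sets, by very different amounts. SVIL encodes supervillin, which binds actin and myosin at the membrane. It read 8.37 on the miR-941 array and 9.13 on the control array (-0.76), and its next probe set read 5.34 against 6.16 (-0.82). ANLN encodes anillin, which organises the contractile ring of dividing cells. Its 2 probe sets read 8.50 and 6.68 on the miR-941 array, against 9.22 and 7.50 on the control array (-0.71 and -0.82). The ANLN probe sets differed by nearly the same amount, with an SD of 0.0753, and the one with the larger difference carries the suffix _a_at, neither _s_at nor _x_at.

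LIMA1, whose product stabilises filaments and links them to cadherin junctions, read 9.78 on the miR-941 array and 10.08 on the control array (-0.29). Its other probe sets read 9.43 and 3.36 against 9.87 and 3.91 (-0.44 and -0.55), so all 3 were lower. AFDN encodes afadin, which joins nectin adhesion molecules to actin. It read 6.87 on the miR-941 array and 7.04 on the control array (-0.17), with 3 of 4 detected probe sets lower and 1 equal. CTTN encodes cortactin, a stabiliser of branched actin. It read 7.59 on the miR-941 array and 7.64 on the control array (-0.05). The other detected CTTN probe sets read 2.67 and 1.89 against 1.86 and 2.64, differences of 0.81 and -0.75. Those probe sets are annotated with the same source sequence and lie on opposite sides, which gave CTTN the widest spread of any member (SD 0.78 over 3).

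Of the 7 formins, 6 read lower, all by less than 1.5-fold. DAAM1, a formin that acts with Dishevelled in Wnt signalling, had the lowest difference: its 3 detected probe sets read 3.97, 4.09 and 3.64 on the miR-941 array, against 4.49, 4.30 and 4.099 on the control array (-0.51, -0.22 and -0.46). All 3 were lower. DIAPH1, DIAPH2 and DIAPH3 encode the diaphanous formins, which nucleate and lengthen unbranched filaments. DIAPH1 read 5.98 on the miR-941 array and 6.02 on the control array (-0.04). DIAPH2 read 3.77 on the miR-941 array and 3.97 on the control array (-0.21), and its other detected probe set differed by -0.12. DIAPH3 read 6.04 on the miR-941 array and 6.27 on the control array (-0.23), and its other detected probe set read 3.34 on both. All 3 diaphanous differences were smaller than the SD of 0.29 between probe sets of a gene.

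FMNL2 and FMNL3 encode formins of the cell edge and of thin protrusions. FMNL2 read 6.41 on the miR-941 array and 6.68 on the control array (-0.26), but its second detected probe set read 3.03 against 2.77 (0.27), so the gene had no settled direction. FMNL3 read 1.59 on the miR-941 array and 1.44 on the control array (0.15), close to the detection level. FHOD1, a formin linked to stress fibres, read 5.86 on the miR-941 array and 5.96 on the control array (-0.10) on its only probe set. The median difference of the formins was -0.21, against -0.44 for the IQGAP genes and -0.29 for the cortex scaffolds. With the median over each gene's detected probe sets, these medians were -0.10 for the formins, -0.31 for the IQGAP genes and -0.44 for the cortex scaffolds, so the order of the classes depends on the probe sets taken.

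**Figure D3:**
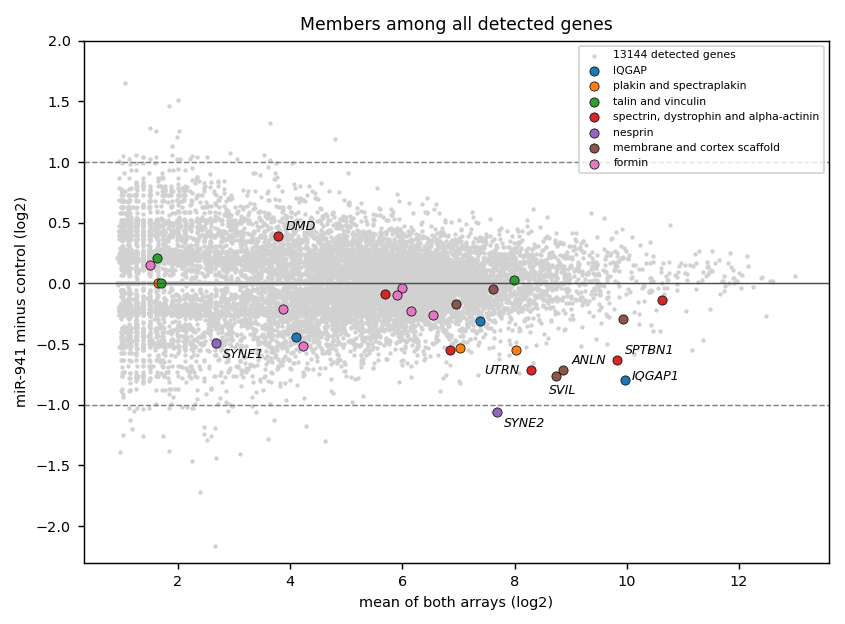
Difference between the arrays (miR-941 minus control, log2, vertical axis) against the mean of both arrays (log2, horizontal axis) for the 13144 detected genes (grey) and the 29 members, coloured by class. Dashed lines mark 2-fold; SYNE2 lies below the lower one at -1.06, and DMD is the highest member at 0.39.

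Some differences recurred to the fifth decimal between genes. The same difference of 0.21 was found in TLN1, in a dim probe set of SPTAN1 and in another of ACTN1, and ACTN4 shared -0.55 with the dimmest probe set of LIMA1. Means over both arrays recurred as well: dim probe sets of MACF1, SPTBN1 and CTTN shared 2.26235. Over the whole array, 21.6% of probe sets had equal values on both arrays. Nearest to the detection level on its inside were a probe set of UTRN (mean 1.00) and those of SPTBN1 and DMD (1.02 each), and on its outside one of CTTN and one of TLN1 (0.873 each). Those inside differed by 0.00 (UTRN), 0.24 (SPTBN1) and 0.13 (DMD), and those outside by -0.26 (CTTN) and 0.00 (TLN1).

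Probe sets with the suffixes _s_at and _x_at carried larger differences among the members than the rest. The 40 detected member probe sets of these kinds had a median of -0.54, with 33 lower and 6 higher, where 43.7% of such probe sets over all genes were lower. The 36 with the plain suffix _at had a median of -0.21, with 26 lower and 5 higher, where 43.2% were lower over all genes. Over all genes both kinds had a median of 0.00. IQGAP1 had no probe set of the plain kind. On their brightest plain probe sets SVIL had -0.23 (1.01 against 1.24), IQGAP3 -0.13 (1.68 against 1.82) and DST -0.84 (1.97 against 2.81). SYNE2 had -0.50 (2.47 against 2.97) and SPTBN1 -0.49 (7.46 against 7.95). Some members had a plain probe set as their brightest, among them UTRN (-0.72), ACTN4 (-0.55), ACTN1 (-0.13) and CTTN (-0.05). The part of brightness in the difference between the suffixes was not tested.

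On the same arrays the Affymetrix controls along the beta-actin mRNA differed by position. The 5' control of ACTB read 6.49 on the miR-941 array and 7.15 on the control array (-0.66), the middle one differed by -0.37 and the 3' one by -0.04. For GAPDH the 5', middle and 3' controls differed by -0.19, -0.07 and 0.05. Most members are known for long mRNAs, and the part of this difference along mRNAs in their values was not tested.

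Genes of the same cytoskeletal systems that are not members were taken from a list of 61, of which 55 had a named probe set and 51 were detected. Of these 51 relatives, 27 were lower, 19 higher and 5 equal, with a median of -0.05, and none differed by 2-fold. Lower readings made up 52.9%, against 79.3% for the members and 42.4% for all genes. The members were chosen with their differences in view, so these shares are set side by side with no comparison drawn.

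Partners of spectrin (other spectrins, ankyrins, adducins and the EPB41 proteins) gave 8 lower and 5 higher of 13, with a median of -0.19. ADD3, an adducin that caps filaments on the spectrin mesh, had -0.28, with 3 of 4 detected probe sets lower, and SPTBN5 had -0.26 near the detection level. ANK1, an ankyrin that fastens spectrin to membrane proteins, had 0.35 on a dim probe set (1.69 on the miR-941 array, 1.34 on the control array). Of its 4 detected probe sets, 3 were higher and 1 was lower. EPB41, which strengthens the bond of spectrin to actin, had 0.28 with both detected probe sets higher. The dystrophin complex gave 3 lower, 2 higher and 2 equal of 7. In it, the syntrophins SNTB1 and SNTB2 had -0.26 and -0.15, dystrobrevin DTNB had 0.42 and sarcoglycan SGCB 0.05. All 4 detected probe sets of SNTB2 were lower, the lowest at -1.04.

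Integrin adhesion partners divided evenly, with 6 lower, 5 higher and 1 equal of 12. The parvins, which bind actin and the integrin-linked kinase, lay on opposite sides: PARVA read 2.87 on the miR-941 array and 3.52 on the control array (-0.65), while PARVB read 3.83 and 3.24 (0.59). All 4 detected PARVB probe sets were higher, and 2 of 3 for PARVA were lower. BCAR1, an adhesion adaptor, had -0.50 and the integrin activator FERMT1 0.52. The nuclear envelope partners of the nesprins, SUN proteins and lamin among them, gave 1 lower, 2 higher and 1 equal of 4, with a median of 0.13.

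Formins and alpha-actinins outside the member list gave 3 lower, 3 higher and 1 equal of 7. ACTN2, the alpha-actinin known from muscle, read 3.42 on the miR-941 array and 4.23 on the control array (-0.82), with 2 of 3 probe sets lower, and the formin FMN2 had -0.23. INF2, a formin that also severs filaments, had 0.20. ACTN3 had 0.19 on a dim probe set (1.38 on the miR-941 array, 1.19 on the control array).

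**Figure D4:**
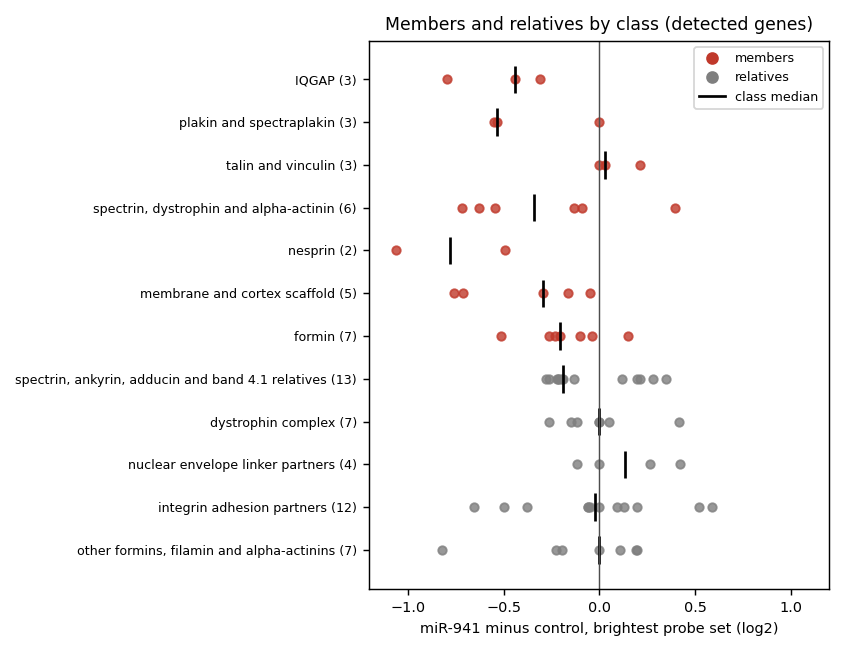
Difference of the brightest probe set (miR-941 minus control, log2, horizontal axis) of each detected gene, by class, for the 29 members (red, above) and 43 of the relatives (grey, below), with the number of detected genes in brackets and the class median as a bar. Medians run from -0.78 (nesprins) to 0.03 (talin and vinculin) among the members and from -0.19 to 0.13 among the classes of relatives shown.

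Of 10 genes known from the line that gave rise to 293T, 8 were detected. VIM read 8.70 on the miR-941 array and 8.82 on the control array. In the same order, NEFL read 7.37 and 6.99, SALL2 6.49 and 6.36, KRT18 6.38 and 6.14, and STMN1 6.15 and 5.71. NEFM (3.19 and 3.45) and INA (3.13 and 3.72) were dimmer, and PAX2 (1.23 and 0.86) lay close to the detection level. KRT8 (0.80 and 0.99) and LHX1 (0.76 and 0.97) were below it. Of 9 muscle markers 6 passed the detection level, with no value above 2.26 on the miR-941 array or 3.21 on the control array. The master regulator MYOD1 read 1.00 and 0.74, with a mean (0.873) below the detection level. Of 8 markers of fibroblasts, endothelium, epidermis and liver, 4 passed, with values up to 2.48 (miR-941) and 2.72 (control). Of the blood markers, PTPRC, CD3E and CD14 were below the detection level. HBB passed it on all 4 probe sets, with 3 higher and 1 lower, and its brightest, an _x_at one, read 7.54 and 6.95.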

How the data were processed

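The data are 2 arrays, 1 per group, grouped by the oligo named in the labels. Per the series' design text, the authors used RMA in R to make the deposited values, which were taken as log2. The submitters' processing notes also name affy and MAS5 without versions or roles. Scale and centring are not given in the sources used here. Of 54675 probe sets, 41091 had 1 gene symbol in the platform annotation, 1801 had several, 11721 had none there and 62 were controls. Symbols were updated through Entrez identifiers to the RefSeq table of GRCh38.p14, which held 41037.

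Differences and counts were computed in Python 3.11.15 with pandas 2.3.3, and the code was checked on shifted data. With 1 array per group no test was made. All members are named. In each class of relatives with 5 or more detected genes, the 2 lowest and 2 highest differences were named, and any past 2-fold would have been. A further class of relatives, counted in their total, is not reported here. The members and lists were chosen with earlier results of these data known. Alternatives were the mean or median over detected probe sets, dropping _x_at and _s_at probe sets, no level filter or the 75th percentile, centring of each array, quantile normalization, removal of a loess trend (span 0.5), and raising low values to 0.92. Centring used the median over the brightest probe sets of the detected genes on each array.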

Additional observations from a re-analysis of the deposited data

How the results depend on the processing

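Of 9 alternatives, none turned the direction of the members' median, which ran from -0.30 to -0.23. Of the 23 lower members, 21 were lower under every alternative that gave them a value. The exceptions were CTTN (0.0051 with the mean over probe sets) and FMNL2 (0.000404 with the mean and with the median over probe sets). Several alternatives could not have turned a member. No level filter, the 75th percentile and raised low values left each member with a value at its deposited difference. Centring moved every difference by the same 0.017. The mean and median could not move the 7 members with 1 detected probe set. The count of members lower by 2-fold, 1 in the report, was 0 with the mean, with the median and without _x_at and _s_at probe sets, where SYNE2 had -0.68, -0.50 and -0.50. Higher members numbered 1 without _x_at and _s_at probe sets, where 22 members had a value, and 2 above the 75th percentile of level, where 24 did. Higher relatives numbered 12 above that percentile, where 33 had a value. These settings test fewer genes. With a loess trend removed, 25 members and 51.7% of all genes were lower, against 23 and 42.4% as deposited. Over all genes, counts of 2-fold lower and higher genes were 7 and 4 above the 75th percentile and 18 and 23 with the mean over probe sets, against 38 and 29. SVIL ran from -0.79 to -0.23 and UTRN from -0.74 to -0.24 over the alternatives. The -0.23 of SVIL came from its only detected plain probe set, which read 1.01 (miR-941) and 1.24 (control). The -0.24 of UTRN was a median that took in a probe set at 1.00 on both arrays. No paired analysis was possible because there was a single array on either side, which also left no array to omit. Dim probe sets, near 0.92, limit what can be said of PLEC, TLN1, TLN2 and FMNL3.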
